A study of Danio rerio with 12 samples.

Results

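Whole kidneys of adult zebrafish were examined for 9 genes that mark T and B lymphocytes: lck, zap70, cd4-1, cd8a, il7r, rag1, rag2, cd79a and pax5. The members were chosen by gene symbol, and 8 of the 9 were measured here among 14781 genes counted in each library. Of these, 7 matched by symbol and cd4-1 matched the row named cd4, its older symbol in a RefSeq gene table of the assembly GRCz12tu. The other member, cd79a, was not analysed here, so the B cell side rests on pax5.

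The study sequenced RNA from whole kidneys of male EK fish that were adult, 4 to 12 months of age, and gave 12 libraries, 3 in each of 4 groups. The groups were homozygous cebpd knockouts (cebpd KO) and their wild types (cebpd WT), and homozygous CEN knockouts (CEN KO) and their wild types (CEN WT). cebpd encodes a C/EBP transcription factor, and in the published study CEN is an enhancer linked to cebpd. All 4 groups, the wild types included, had their heart muscle cells ablated with tamoxifen (0.5 to 0.7 µM for 17 h) and were sampled 7 days later. No fish without heart injury were among the samples. The labels give neither the driver of the ablation transgene nor the number of fish behind a library. The p-values therefore rest on the spread between libraries, which may be technical.

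The zebrafish kidney is the adult site of blood formation and B cell development, and it lies around the nephrons. T cells mature in the thymus and then seed the kidney and other organs. In T cells the kinase Lck starts signalling from the antigen receptor, and Zap70 passes it on, while Cd4 and Cd8a are coreceptors of helper and cytotoxic T cells. In mammals IL-7 received through Il7r keeps early lymphocytes and resting T cells alive. Rag1 and Rag2 form the enzyme that cuts DNA to assemble antigen receptor genes in developing T and B cells. Pax5 is the transcription factor that commits precursors to the B cell fate, and Cd79a is a signalling chain of the B cell receptor.

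Each library held 15793475 to 18104535 counts in genes, and the 8 measured genes took 466 to 1573 of them. Values are given in CPM, a count relative to the size of its library after TMM scaling, and 3 counts corresponded to 0.157 to 0.199 CPM (a floor that covers counting error only). All 8 genes passed the filter on low counts that left 11840 genes for testing. The labels were checked on cebpd, which had 10.4, 4.03 and 12.9 CPM in cebpd KO kidneys, against 316, 466 and 338 CPM in cebpd WT kidneys. In CEN KO kidneys it had 67.9, 72.8 and 77.9 CPM, against 294, 333 and 212 CPM in CEN WT kidneys. Kidney identity was seen in every group, with summed levels of 14 proximal tubule genes between 6860 and 11500 CPM. Replicate 3 of cebpd KO stood apart from the others of its group, in several lymphocyte lists and also in lists of other cells. Its mean log2 CPM over 15 T cell transcription factors was 1.93, against 2.79 and 2.82 in replicates 1 and 2. In it 12 genes of the common gamma chain and IL-7 pathway summed to 117 CPM, against 254 and 250 CPM. Over 9 thrombocyte genes the mean log2 CPM of replicate 3 was 4.25, against 5.21 and 4.92. Over 7 natural killer and innate lymphocyte genes it was higher, at 2.96 against 2.28 and 2.37. The TMM factor of replicate 3, 0.835, was the lowest of the 12 libraries. The cebpd results are therefore given with and without this replicate where they changed.

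Lymphocyte transcripts were present at low levels in all 12 libraries. Summed over the 8 genes, they were higher in the 6 libraries of the CEN experiment than in the 6 of the cebpd experiment. The summed level of the 8 genes was 43, 39 and 30.9 CPM in cebpd KO kidneys and 26.5, 35.4 and 30.1 CPM in cebpd WT kidneys. It was 66.2, 71.6 and 70.8 CPM in CEN KO kidneys and 86.4, 57.6 and 76 CPM in CEN WT kidneys. In this sum every CEN library thus lay above every cebpd library. The mean log2 CPM of the 4 T cell members (lck, zap70, cd4-1 and cd8a) overlapped between the experiments. It was 0.92 in CEN WT replicate 2, against 1.11, 1.01 and 0.94 in cebpd KO kidneys, while every other CEN library was at 1.2 or above. In each of the 8 genes the group mean was lowest in cebpd WT, next lowest in cebpd KO, and higher in both CEN groups.

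**Figure D1:**
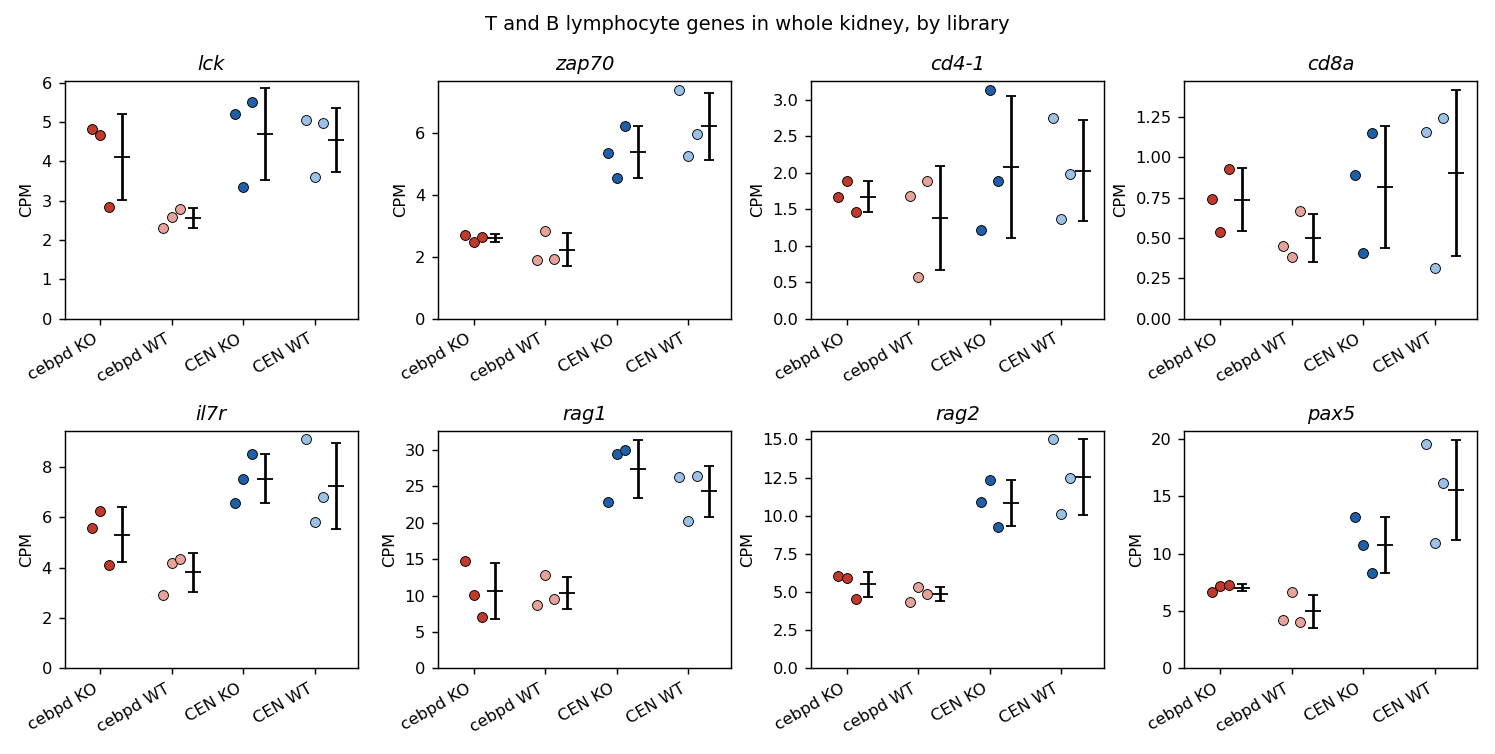
Level of the 8 measured lymphocyte genes in CPM (vertical axes, linear from 0) in cebpd KO, cebpd WT, CEN KO and CEN WT kidneys. Points are libraries, and bars are the group mean and SD (n = 3). The CEN groups lie apart from the cebpd groups for zap70, rag1, rag2 and pax5, while cd4-1 and cd8a overlap throughout.

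The first question was whether loss of cebpd changed the lymphocyte genes of the injured fish. No measured member was called at an adjusted p under 0.05 by edgeR's quasi-likelihood test, where 0.0845% of all genes tested were called, and none was called by DESeq2 or limma-voom. At an unadjusted edgeR p under 0.05 there was 1 of 8 members, lck, against 13.4% of all genes. All 8 fold changes were above 0, against 48.6% of all genes, and their median was 0.38 on the log2 scale, against -0.01 over all genes. In 2 of 8 members, lck and pax5, the cebpd KO libraries lay above the cebpd WT libraries without overlap, against 7.8% of all genes. Without cebpd KO replicate 3 there were also 0 of 8 members called by edgeR, where 1.94% of all genes tested were called (233, against 10 with it), and the median over the members was again 0.38. In whole tissue, more cells of a type and more RNA per cell cannot be told apart.

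Among the T cell signalling genes, lck had 4.82, 4.68 and 2.85 CPM in cebpd KO kidneys, against 2.31, 2.6 and 2.8 CPM in cebpd WT kidneys. The lowest knockout library thus stood just above the highest wild type. The log2 fold change was 0.68 ± 0.28 (SE; edgeR adjusted p = 0.307). The kinase zap70 differed less, at 2.62 ± 0.127 CPM in cebpd KO and 2.24 ± 0.533 CPM in cebpd WT kidneys (SD, n = 3 each), and its libraries overlapped.

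The coreceptors were the least precisely measured members. There were 10 to 14 counts of cd8a in cebpd KO libraries and 6 to 11 in cebpd WT libraries, and 22 to 35 counts of cd4-1 against 9 to 31. Both overlapped between groups. Their 95% intervals ran from -0.69 to 1.77 for cd8a and from -0.74 to 1.28 for cd4-1 on the log2 scale. Changes of either sign within these bounds were thus compatible with the data. The cytokine receptor il7r had 5.56, 6.24 and 4.11 CPM in cebpd KO kidneys, against 2.92, 4.18 and 4.33 CPM in cebpd WT kidneys, and 1 knockout library lay below 2 of the wild types (log2 fold change 0.48 ± 0.25, edgeR adjusted p = 0.442).

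The recombinase genes were the members nearest to 0 in the cebpd comparison. rag1 had 14.8, 10.1 and 7.1 CPM in cebpd KO kidneys, against 8.66, 12.8 and 9.56 CPM in cebpd WT kidneys. The cebpd KO libraries held both the highest and the lowest of these 6 values. The log2 fold change was 0.05 ± 0.25, with a 95% interval of -0.51 to 0.60. rag2 averaged 5.52 ± 0.816 CPM in cebpd KO and 4.86 ± 0.47 CPM in cebpd WT kidneys, with a log2 fold change of 0.18 ± 0.21 and overlapping libraries.

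The B cell factor pax5 had 6.68, 7.15 and 7.23 CPM in cebpd KO kidneys, against 4.22, 6.66 and 4.02 CPM in cebpd WT kidneys. The highest wild type, replicate 2, reached nearly the lowest knockout. The log2 fold change was 0.50 ± 0.27 (edgeR adjusted p = 0.466), with a 95% interval of -0.08 to 1.09.

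Markers of neutrophils and macrophages had higher means in cebpd KO kidneys, although edgeR called 0 of 13 neutrophil and 0 of 16 macrophage genes. The summed level of 14 neutrophil genes, 13 of them tested, was 6680 to 8150 CPM in cebpd KO kidneys and 3700 to 4900 CPM in cebpd WT kidneys. Of the 13 fold changes tested 12 were above 0, and the median was 0.70 on the log2 scale. For 16 macrophage genes the median was 0.46, with 16 of 16 above 0. Other blood cells differed less, with a median of -0.17 over 13 erythroid genes (2 above 0). It was 0.09 over 9 thrombocyte genes (6 above 0). At an unadjusted edgeR p under 0.05 there were 11 of the neutrophil and 5 of the macrophage genes, against 13.4% of all genes. Of all genes tested in this comparison, 48.6% had a fold change above 0 and 0.0845% were called. The 14 proximal tubule genes summed to 6860 to 7510 CPM in cebpd KO and 7750 to 11500 CPM in cebpd WT kidneys. Over the 13 that were tested the median log2 fold change was -0.26, with 0 genes called. Without cebpd KO replicate 3 there were 2 neutrophil genes (csf3r and mpx), 1 macrophage gene (csf1ra) and 1 proximal tubule gene (slc15a2) called higher. All were named after their values were seen, and 1.94% of all genes tested were called in that fit. The part of these differences in the lymphocyte values was not tested. With the tubule level as a covariate no member was called either.

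The second question was whether loss of CEN changed the same genes. By edgeR's quasi-likelihood test 0 of 8 members were called in CEN KO against CEN WT kidneys, where 0.00845% of all genes tested were called. DESeq2 and limma-voom called none, and at an unadjusted edgeR p under 0.05 there were 0 members, against 9.86% of all genes. Of the 8 fold changes 4 were above 0, against 50.6% of all genes, and the median was -0.06. The libraries of the groups overlapped in all 8 members, whereas they did not overlap in 19.4% of all genes. cebpd itself was 3.84-fold lower in CEN KO kidneys, without overlap, and was not called (log2 fold change -1.94 ± 0.32, edgeR adjusted p = 0.106). A member that was not called is thus not shown to be unchanged.

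The mean levels of the T cell genes were close between the genotypes of the CEN experiment. lck had 5.22, 3.36 and 5.52 CPM in CEN KO kidneys, against 5.05, 3.61 and 4.98 CPM in CEN WT kidneys. il7r averaged 7.52 ± 0.972 CPM in CEN KO and 7.23 ± 1.7 CPM in CEN WT kidneys. The fold changes of lck and il7r were 0.05 and 0.06 on the log2 scale, with 95% intervals of -0.54 to 0.64 and -0.47 to 0.58. zap70 was 5.4 ± 0.837 CPM in CEN KO and 6.23 ± 1.08 CPM in CEN WT kidneys, a log2 fold change of -0.21 ± 0.23. cd4-1 and cd8a had fold changes of 0.03 ± 0.45 and -0.14 ± 0.53 on the log2 scale, and both overlapped. Their 95% intervals were wide, -0.95 to 1.01 and -1.29 to 1.

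Both recombinase genes stayed within the spread of the libraries as well. rag1 had 22.9, 29.5 and 29.96 CPM in CEN KO kidneys, against 26.3, 20.2 and 26.4 CPM in CEN WT kidneys. rag2 had 10.9, 12.3 and 9.28 CPM in CEN KO kidneys, against 15.0, 10.1 and 12.5 CPM in CEN WT kidneys. Their log2 fold changes had opposite signs, 0.17 ± 0.25 for rag1 and -0.21 ± 0.20 for rag2.

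The largest CEN fold change among the members was that of pax5, which was not called. It had 13.2, 10.7 and 8.31 CPM in CEN KO kidneys, against 19.5, 10.9 and 16.1 CPM in CEN WT kidneys. Replicate 2 of the wild types lay among the knockouts. The log2 fold change was -0.53 ± 0.26 (edgeR adjusted p = 0.54). pax5 thus had fold changes of opposite sign in the knockouts, 0.50 for cebpd and -0.53 for CEN. The difference between these effects was 1.03 ± 0.37 on the log2 scale (edgeR adjusted p = 0.273). None of the 8 members was called in this test of the difference by edgeR, DESeq2 or limma-voom, where edgeR called 0.0422% of all genes. At an unadjusted edgeR p under 0.05 there was 1 member, pax5, against 12.9% of all genes.

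**Figure D2:**
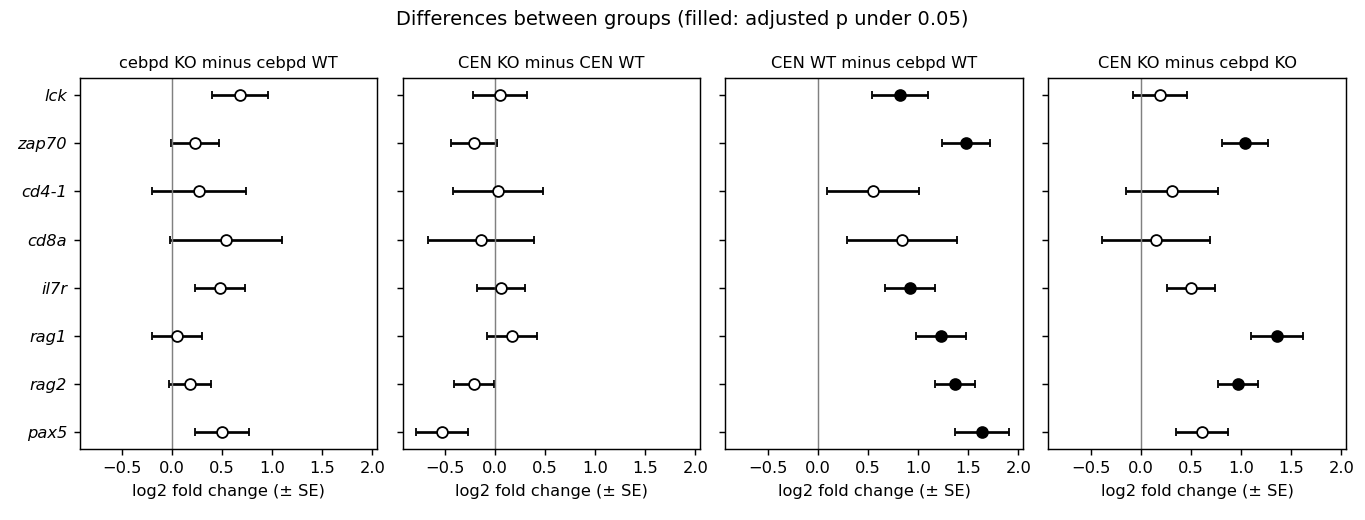
Log2 fold change ± SE of the 8 measured genes (horizontal axes) in the knockout comparisons of each experiment and between the experiments, from edgeR. Filled points have an adjusted p under 0.05: none in the knockout comparisons, 6 between the wild types and 3 between the knockouts.

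The rest of the lymphocyte programme was followed in 7 lists, none of which holds a member. They share genes with lists of other cells. The macrophage list also holds irf8 and spi1b of the B cell transcription factors, and cd74a and cd74b of B cell receptor signalling. The blood stem and progenitor list also holds spi1b. The distal tubule list also holds gata3 of the T cell transcription factors. In both knockout comparisons edgeR called 0 genes of the 7 lists, where 0.0845% (cebpd) and 0.00845% (CEN) of all genes were called. For cebpd KO against cebpd WT the median log2 fold changes were 0.19 over 15 tested genes of T cell receptor signalling, 0.13 over 15 T cell transcription factors and 0.05 over 11 genes of the common gamma chain and IL-7 pathway. They were 0.18 over 13 genes of V(D)J recombination and end joining, 0.29 over 18 genes of B cell receptor signalling, 0.39 over 16 B cell transcription factors and 0.18 over 7 natural killer (NK) and innate lymphocyte genes. The number of genes above 0 was 10 of 15, 8 of 15, 7 of 11, 13 of 13, 14 of 18, 13 of 16 and 4 of 7 in this order, against 48.6% of all genes.

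At an unadjusted edgeR p under 0.05 there were 4, 0, 2, 0, 4, 4 and 2 genes, where 13.4% of all genes passed.

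Several of these values depended on cebpd KO replicate 3. Without it the medians were, in the same order, 0.34, 0.35, 0.32, 0.19, 0.30, 0.52 and 0.03, and 9 of 13 genes of V(D)J recombination and end joining were above 0. Of all 12027 genes tested in that fit, 5912 were above 0. edgeR then called 3 genes of the lists higher in cebpd KO kidneys, lcp2a, swap70b and syk, a kinase of the B cell receptor pathway named after its values were seen, where 1.94% of all genes were called.

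The genes of lowest p in these lists included signalling adaptors that are not confined to lymphocytes in mammals. lcp2a, which encodes an adaptor downstream of Zap70 (SLP-76), averaged 65.5 ± 9.09 CPM in cebpd KO and 43.7 ± 1.51 CPM in cebpd WT kidneys (log2 fold change 0.58 ± 0.12, edgeR adjusted p = 0.0819). swap70b, a B cell and mast cell signalling protein in mammals, averaged 62.8 ± 7.38 and 36.4 ± 4.34 CPM (cebpd KO, then cebpd WT; log2 fold change 0.79 ± 0.15, edgeR adjusted p = 0.0557). The adaptors grap2b and dapp1 had log2 fold changes of 0.71 ± 0.21 and 1.07 ± 0.28, with edgeR adjusted p of 0.16 and 0.121. Among B cell transcription factors, id3 was at 0.49 ± 0.13 and irf8, also a macrophage factor, at 0.61 ± 0.18, neither of them called. In the other lists ikzf1 was at 0.29 ± 0.16, runx3 at 0.30 ± 0.22, the cytokine receptor il21r.1 at 0.56 ± 0.23 and the T and NK cell cytokine il15 at 0.51 ± 0.23. The end-joining genes xrcc5 and polm were at 0.31 ± 0.21 and 0.54 ± 0.38, the death ligand faslg at 1.07 ± 0.45 and id2b at 0.53 ± 0.22. None of these genes passed the threshold with all 12 libraries.

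In the CEN experiment the medians of the 7 lists lay between -0.15, for B cell transcription factors, and 0.01, for T cell transcription factors. At an unadjusted edgeR p under 0.05 there were 1 T cell transcription factor, 2 genes of V(D)J recombination and end joining and 2 of B cell receptor signalling, where 9.86% of all genes passed. The lowest p among T cell transcription factors was that of ikzf1 (Ikaros, a regulator of lymphocyte development), which averaged 32.7 ± 3.76 CPM in CEN KO and 46.3 ± 2.52 CPM in CEN WT kidneys, without overlap (log2 fold change -0.50 ± 0.16, edgeR adjusted p = 0.296). The end-joining factor xrcc4 and the chromatin protein hmgb2b were each at -0.51 ± 0.21. cd22, an inhibitory B cell receptor in mammals, was at 0.88 ± 0.34, and irf4a at -0.53 ± 0.28. The other genes named by p were cd40lg (-0.63 ± 0.32), lcp2a (0.23 ± 0.12), runx3 (-0.35 ± 0.22), il4r.1 (0.39 ± 0.23), stat5b (-0.43 ± 0.35), swap70b (-0.35 ± 0.14), lmo2 (-0.45 ± 0.21), id2b (-0.48 ± 0.22) and prf1.5 (-0.58 ± 0.33). None of these was called.

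The groups differed most between the experiments. CEN WT and cebpd WT fish carry no knockout, and the labels give both as wild type of the same strain, age range and treatment. By edgeR's quasi-likelihood test 6 of 8 members were higher in CEN WT than in cebpd WT kidneys, where 25% of all genes tested were called and 10.9% were called higher. The median over the members was 1.08 on the log2 scale, against 0.01 over all genes. The same 6 members lay higher in CEN WT kidneys without overlap, against 22.8% of all genes. Stock, age, day and experiment cannot be told apart in this comparison.

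The clearest differences were in zap70, the recombinase genes and pax5. zap70 had 7.41, 5.28 and 5.99 CPM in CEN WT kidneys, against 1.91, 2.85 and 1.95 CPM in cebpd WT kidneys. This is a log2 fold change of 1.48 ± 0.24 (edgeR adjusted p = 0.00152). rag1 averaged 24.3 ± 3.53 CPM in CEN WT and 10.3 ± 2.18 CPM in cebpd WT kidneys, a log2 fold change of 1.23 ± 0.25 (edgeR adjusted p = 0.00535). rag2 averaged 12.5 ± 2.47 CPM in CEN WT and 4.86 ± 0.47 CPM in cebpd WT kidneys, a log2 fold change of 1.37 ± 0.20 (edgeR adjusted p = 0.00108). The members' largest fold change was that of pax5, with 15.5 ± 4.36 CPM in CEN WT against 4.96 ± 1.47 CPM in cebpd WT kidneys, or 3.12-fold (log2 1.64 ± 0.27, edgeR adjusted p = 0.00166). These 4 genes kept their calls under all 10 alternative settings and without each of the 12 libraries.

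The other T cell genes differed by less. il7r was higher by 0.92 ± 0.25 on the log2 scale (edgeR adjusted p = 0.0186) and lck by 0.82 ± 0.28 (adjusted p = 0.0483). The call of lck was lost in 10 of 12 fits that left out 1 library, with edgeR adjusted p of up to 0.137; it held without cebpd KO replicate 3 and without CEN KO replicate 2. The call of il7r was lost without cebpd WT replicate 1 or CEN WT replicate 1 (highest adjusted p 0.0827). Without CEN WT replicate 1 there were 4 called members, where fits without 1 library called 1630 to 4013 of all genes. The call of lck was also lost with the replicate number as a block (adjusted p = 0.0629), with no filter (0.0563), with limma-voom (0.064) and with the tubule level as a covariate (0.0578). The coreceptors cd4-1 (0.55 ± 0.46) and cd8a (0.84 ± 0.55) were not called, and their libraries overlapped.

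The knockouts of the experiments gave a further comparison, added after seeing the data. It shares no library with that of the wild types, but both come from the same fit, with shared scaling and spread. A direct effect of the different knockouts also enters the comparison of the knockouts. Here 3 of 8 members were higher in CEN KO than in cebpd KO kidneys by edgeR, where 15.9% of all genes tested were called and 7.35% were called higher. zap70 had 5.38, 4.57 and 6.25 CPM in CEN KO kidneys, against 2.72, 2.47 and 2.65 CPM in cebpd KO kidneys, and the log2 fold change was 1.04 ± 0.23 (edgeR adjusted p = 0.0137). rag1 was higher by 1.36 ± 0.26 (adjusted p = 0.00618) and rag2 by 0.97 ± 0.20 (adjusted p = 0.00984). pax5 did not overlap, at 10.7 ± 2.45 CPM in CEN KO and 7.02 ± 0.301 CPM in cebpd KO kidneys, and was not called (0.61 ± 0.26, edgeR adjusted p = 0.129). In all, 5 of 8 members lay higher in CEN KO kidneys without overlap, against 17.6% of all genes.

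Genes of other cells also differed between these knockouts, where 15.9% of all genes tested were called and 7.35% were called higher in CEN KO. Of 13 neutrophil genes 6 were called lower in CEN KO than in cebpd KO kidneys (median log2 fold change -0.53), as were 6 of 15 proliferation genes (median -0.62) and 3 of 16 macrophage genes (median -0.23). Of 13 proximal tubule genes 4 were higher and 1 lower, with summed proximal tubule levels of 8140 to 10800 CPM in CEN KO and 6860 to 7510 CPM in cebpd KO kidneys. With the tubule level as a covariate no member was called, where edgeR called 391 of all genes tested, against 1879 without the covariate. The edgeR adjusted p of zap70, rag1 and rag2 were then 0.123, 0.0852 and 0.0664, at log2 fold changes of 0.91, 1.03 and 0.98. Without CEN KO replicate 3 zap70 was not called (adjusted p = 0.0589). Over both genotypes, 4 members, zap70, rag1, rag2 and pax5, had all 6 CEN libraries above all 6 cebpd libraries, against 6.91% of all genes. In a test for any difference among the 4 groups edgeR called 5 of 8 members, these 4 with il7r, against 28.1% of all genes. The call of il7r was lost in 7 of 12 fits without 1 library, with adjusted p of up to 0.0899, and lck was called without cebpd KO replicate 3 (adjusted p = 0.0332).

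In the T cell lists more genes were called higher than lower in CEN WT against cebpd WT kidneys. The genes named here were chosen after their values were seen. Of all genes, 25% were called and 10.9% were called higher in this comparison. Of 15 T cell receptor signalling genes 3 were higher in CEN WT kidneys and none lower: the adaptor lat (6.56 ± 1.3 CPM in CEN WT and 3.7 ± 0.785 CPM in cebpd WT), the kinase prkcq and grap2b. Of 15 T cell transcription factors 5 were higher and 1, zbtb7b, was lower. tcf7, which drives early T cell development in mammals, averaged 9.15 ± 1.88 CPM in CEN WT and 3.4 ± 1.23 CPM in cebpd WT kidneys (log2 fold change 1.42 ± 0.40, edgeR adjusted p = 0.0247). foxp3a, the regulatory T cell factor, averaged 2.47 ± 0.777 CPM in CEN WT and 1.1 ± 0.419 CPM in cebpd WT kidneys (log2 fold change 1.17 ± 0.38, edgeR adjusted p = 0.0409). The other 3 were runx3, eomesa and nfatc1. In the IL-7 and gamma chain list il15 was higher and il4r.1 lower, of 11 genes.

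The B cell lists held 7 genes that were higher in CEN WT kidneys, out of 34 tested, where 10.9% of all genes were called higher. Of 18 B cell receptor signalling genes these were lyn, cd37, swap70b and cd81a. The tetraspanin cd37 averaged 20.8 ± 7.92 CPM in CEN WT and 7.11 ± 2.21 CPM in cebpd WT kidneys (log2 fold change 1.55 ± 0.30, edgeR adjusted p = 0.004). cd22 went the other way, with 4 ± 1.63 CPM in CEN WT against 17 ± 2.89 CPM in cebpd WT kidneys (log2 fold change -2.09 ± 0.35, edgeR adjusted p = 0.00182). Of 16 B cell transcription factors irf4a, bcl6a and id3 were higher and none was lower. irf4a, which acts in B cell maturation and antibody secretion, averaged 8.18 ± 0.449 CPM in CEN WT and 3.29 ± 0.993 CPM in cebpd WT kidneys (log2 fold change 1.31 ± 0.28, edgeR adjusted p = 0.00694).

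None of the measured partners of the recombinase was called higher where rag1 and rag2 were. Of 13 tested genes of V(D)J recombination and end joining none was higher in CEN WT kidneys, and 2 were lower, xrcc4 (-0.77 ± 0.21) and hmgb1a (-0.51 ± 0.15). Between the wild types 25% of all genes were called and 10.9% were called higher. The median of the list was -0.03 on the log2 scale. Between the knockouts none was higher in CEN KO kidneys, and 3 were lower: xrcc4, at 6.29 ± 1.52 CPM in CEN KO and 15.3 ± 1.78 CPM in cebpd KO kidneys, hmgb1b and hmgb2b. There 15.9% of all genes were called and 7.35% were called higher. Without cebpd KO replicate 3 the call of xrcc4 alone was left. Unlike the recombinase, these repair and chromatin proteins are made in most cell types. Reads of near-identical copies such as the hmgb1 and cd81 pairs may have been divided or dropped in counting.

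**Figure D3:**
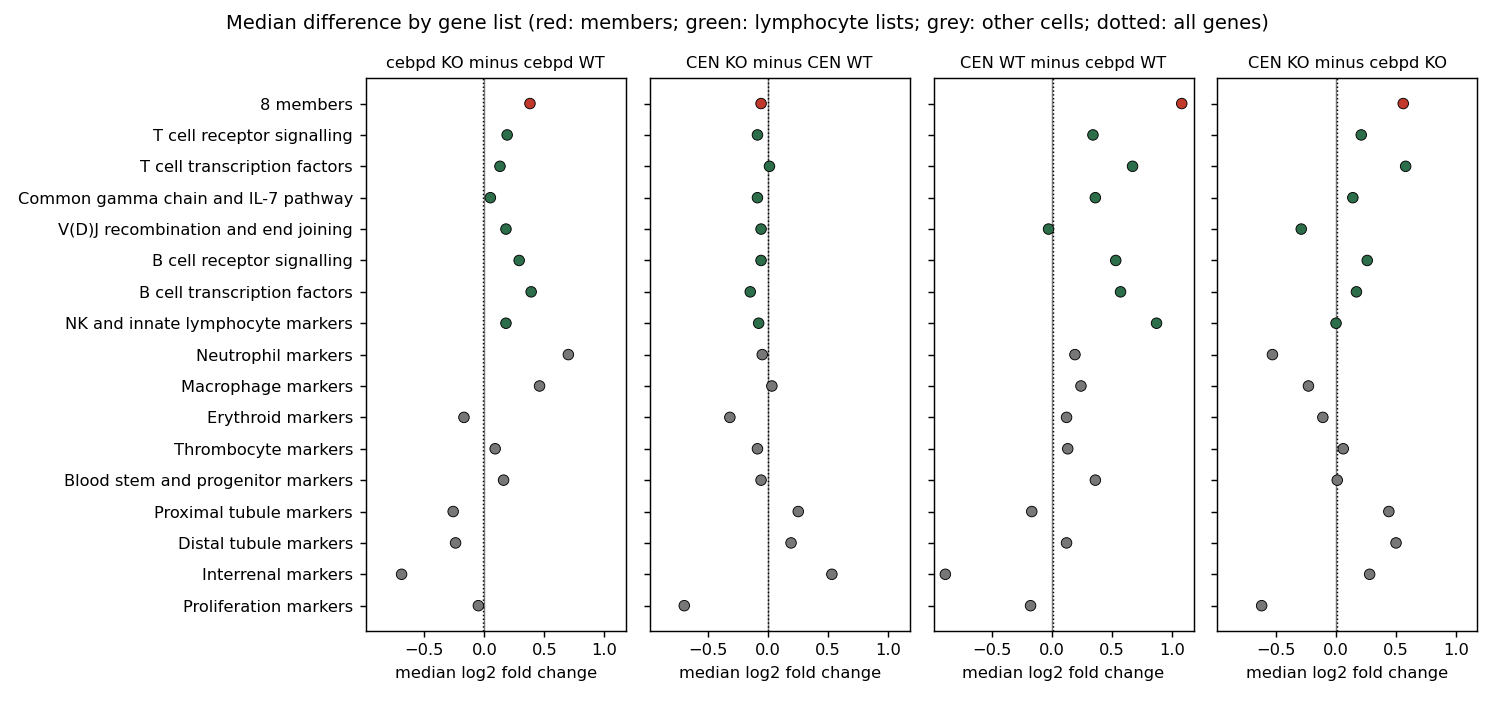
Median log2 fold change (horizontal axes) of the 8 members (red), 7 lymphocyte lists (green) and 9 lists of other cells (grey) in 4 comparisons. Some genes are in both a green and a grey list. The dotted line is the median of all genes tested; the members lie at 0.38, -0.06, 1.08 and 0.56 from left to right.

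Genes of other kidney cells also differed between the wild types, in most lists no more often than the 25% of all genes called. edgeR called 5 of 13 neutrophil genes (2 higher and 3 lower in CEN WT), 4 of 13 proximal tubule genes (2 higher, 2 lower), 3 of 9 distal tubule genes (1 higher, 2 lower) and 2 of 12 blood stem and progenitor genes (both higher). It called 1 of 16 macrophage, 1 of 9 thrombocyte and 1 of 15 proliferation genes, and 0 of 13 erythroid and 0 of 6 interrenal genes. The median log2 fold changes of CEN WT over cebpd WT were 0.19 for neutrophil, 0.24 for macrophage, 0.12 for erythroid, 0.13 for thrombocyte and 0.36 for blood stem and progenitor genes. They were -0.17 for proximal tubule, 0.12 for distal tubule, -0.89 for interrenal and -0.18 for proliferation genes. The summed interrenal level was 250 to 638 CPM in CEN WT and 708 to 985 CPM in cebpd WT kidneys, without overlap. The part of these differences in the lymphocyte values was not tested. Defining genes of thymus stroma were near 0: foxn1 had 0 to 9 counts, psmb11b 0 to 2 and aire 0 to 3, with 0 in 6, 8 and 8 of the 12 libraries, while ccl25b of the same list had 979 to 2188 counts. Innate lymphocyte transcripts were present, with 146 to 432 counts of nkl.4 in every library.

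Ratios of counts within a library do not depend on its scaling. The genes differ in length, so a ratio is compared only across libraries. There were 0.743, 0.537 and 0.61 counts of pax5 for each count of rag1 in CEN WT libraries, against 0.487, 0.52 and 0.42 in cebpd WT libraries, without overlap (exact permutation p = 0.1). Among the knockouts the ratio was 0.578, 0.363 and 0.277 in CEN KO and 0.452, 0.707 and 1.02 in cebpd KO libraries, which overlapped. Counts of rag1 for each count of rag2 ran from 1.55, in cebpd KO replicate 3, to 3.23, in CEN KO replicate 3, and the groups overlapped in every comparison.

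The ratio of zap70 to lck was higher in the CEN libraries within each genotype, without passing the adjusted test. It was 1.03, 1.36 and 1.13 in CEN KO libraries, against 0.564, 0.529 and 0.93 in cebpd KO libraries. In the wild types it was 1.47, 1.46 and 1.2 in CEN WT, against 0.829, 1.1 and 0.696 in cebpd WT libraries. Across genotypes the experiments overlapped, since cebpd WT replicate 2 lay above CEN KO replicate 1. The mean differences were 0.84 between the knockouts and 0.68 between the wild types on the log2 scale. Each had an exact 2-sided permutation p of 0.1, the smallest that 3 libraries against 3 allow, and 0.343 after Benjamini-Hochberg adjustment over 12 comparisons of 3 ratios.

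**Figure D4:**
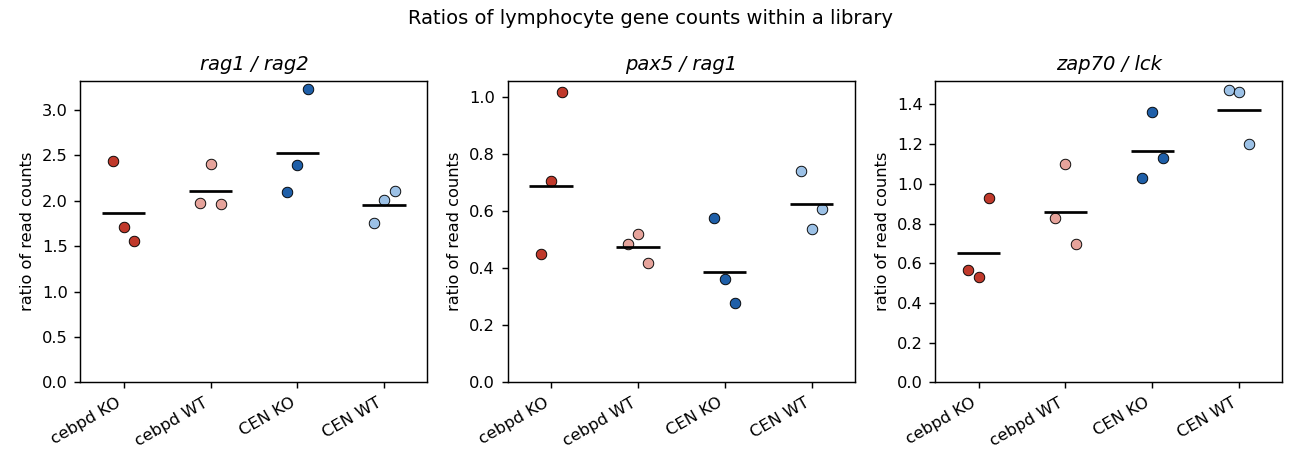
Ratios of read counts within a library (vertical axes, linear from 0) for rag1 over rag2, pax5 over rag1 and zap70 over lck in the 4 groups. Points are libraries and lines are geometric means of the groups (n = 3). The zap70 to lck ratio of every CEN library lies above that of the cebpd group of its genotype, and the rag1 to rag2 ratio overlaps between groups.

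The members varied together across the 12 libraries. Over the 28 pairs of the 8 genes Pearson's r of log2 CPM ran from 0.28 to 0.94 with a median of 0.665, and the highest was that of zap70 with rag2. After subtracting the group means r ran from -0.44 to 0.68 with a median of 0.28, and 25 of 28 pairs were above 0. rag1 and rag2, which neighbour each other on chromosome 25 in the newer assembly with no protein-coding gene between them, had r = 0.93 across all libraries and 0.64 within groups. These are descriptions over libraries that share scaling and group differences.

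Genes named as most like the members were in none of the lymphocyte lists, which do not hold every lymphocyte gene. Whether lymphocytes express them was not tested. Over 12 libraries the mean log2 CPM of the 4 T cell members was most like wdr45 (r = 0.939), fbxl6, znf1124, asb8 and nitr2b. pax5 was most like dedd1 (r = 0.945), spg11, tnfsf12, stk38l and epdl1. rag1 was most like tuba2 (r = 0.965), zeb1b, c1qtnf1, cxcl20 and bco2l, and 140 of 10506 genes ranked had an r over 0.9 with it. il7r was most like wdtc1 (r = 0.948), mboat2b, fzr1a, sftpbb and prkcbb. All of these genes but nitr2b and fzr1a were called between the wild types, where 25% of all genes were called. After subtracting the group means their r ran from 0.5 (tnfsf12 with pax5) to 0.87 (nitr2b with the T cell members).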

How the data were processed

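For each of the 12 libraries the authors deposited the count of reads per gene symbol, not normalized. The build danRer10 and the tools TopHat2 2.1.1, Trim Galore 0.6.4 and HTSeq (listed as 1.6.1) come from the submitters' processing notes. Neither annotation nor strandedness of counting is given in the sources used here. The 5 summary lines were left out. They held 32.1 to 38.5% of a file's reads as outside genes and 1.32 to 3.99% as ambiguous.

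The main test was that of edgeR 4.0.16 in R 4.3.3, and DESeq2 1.42.0 and limma 3.58.1 served as alternatives. filterByExpr with a minimum count of 10 and TMM scaling (factors 0.835 to 1.1) preceded the quasi-likelihood test over all 12 libraries, with a term per group and 8 residual degrees of freedom. The p-values were adjusted by Benjamini-Hochberg over 11840 genes (threshold 0.05). SE is the log2 fold change divided by the square root of F. The test was checked on simulated data.

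The members and lists were chosen with earlier results of these data known. One further gene of the member list is not reported here. Named by rule were the measured members, and from each list genes called in a knockout comparison or else the 2 of lowest p. Most of those from lists of other cell types are not given. Some further genes of the lists, such as tcf7 and csf3r, were named after their values were seen. A gene's likeness was its Pearson r of log2 CPM over 12 libraries, with 5 genes named. Alternatives were other scalings, filters, tests and samples, a replicate block, a tubule covariate and leaving out each library. Deviations of same-numbered knockouts of the experiments had r of 0.15 to 0.35, but no label says that the numbers pair samples. The replicate block changed no member call between the knockouts. Symbols were matched to RefSeq (GRCz12tu).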

Additional observations from a re-analysis of the deposited data

How the results depend on the processing

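No measured member was called in either knockout comparison, or in the difference between them, under any alternative setting or without any of the 12 libraries. Counts of all genes called moved. For cebpd KO against cebpd WT (10 genes) they were 402 with DESeq2's Wald test, 1 with only the 6 libraries compared and 6 with the replicate block, and 1 to 233 without 1 library. For CEN KO against CEN WT (1 gene) they were 138 with DESeq2, 5 with limma-voom, 2 with the 6 libraries and 5 with the block, and 1 to 7 without 1 library. For the difference of the effects (5 genes) they were 344 with DESeq2, 8 with limma-voom, 0 with the block and 0 with the tubule covariate, and 0 to 48 without 1 library. Between the wild types (2961 genes, 6 members) leaving out 1 library gave 1630 to 4013 genes and 4 to 6 members. Between the knockouts (1879 genes, 3 members) it gave 795 to 1890 genes and 2 to 3 members, the 6 libraries alone gave 814 genes, and the tubule covariate 391 genes and 0 members. The test over 4 groups (3325 genes, 5 members) called 2398 to 4026 genes and 4 to 6 members without 1 library. The cause of these shifts was not tested.

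Log2 fold changes near 0 turned sign. For CEN KO over CEN WT, cd4-1 was -0.01 with limma-voom and rag1 -0.06 with the tubule covariate, and in the difference of effects the covariate gave -0.11 for cd4-1 and 0.30 for rag1. Without 1 library the ranges were -0.26 to 0.29 (rag1) and -0.09 to 0.56 (cd4-1) for cebpd KO over cebpd WT. For CEN KO over CEN WT they were -0.09 to 0.24 (lck), -0.39 to 0.31 (cd4-1), -0.55 to 0.18 (cd8a) and -0.07 to 0.25 (il7r). For the difference of effects they were -0.13 to 0.66 (cd4-1) and -0.44 to 0.12 (rag1). For CEN KO over cebpd KO they were -0.02 to 0.38 (lck), -0.12 to 0.59 (cd4-1) and -0.17 to 0.47 (cd8a). No called member turned sign.

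The labels of the other comparisons also share only a replicate number. Deviations of same-numbered libraries there had r of -0.01 to 0.37 (cebpd), -0.02 to 0.20 (CEN) and -0.14 to -0.12 (wild types). With the replicate block 5 members were called between the wild types and 4 in the test over 4 groups, where il7r had an adjusted p of 0.0533. Over all the alternative settings, 2742 to 3512 genes were called between the wild types and 2961 to 4353 in the test over 4 groups. Depth limits cd8a (6 to 22 counts a library) most. The comparison of the knockouts, robust edgeR estimation and the lists without cebpd KO replicate 3 were added after seeing the data.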

Other observations

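A chemokine and receptor pair that guides lymphocytes in mammals was measured beside the members. ccl25b, an orthologue of the thymus and gut chemokine Ccl25, averaged 71.5 ± 13.4 CPM in cebpd KO and 124 ± 15.7 CPM in cebpd WT kidneys, without overlap (log2 fold change -0.80 ± 0.16, edgeR adjusted p = 0.0728); without cebpd KO replicate 3 it was called. It averaged 71.3 ± 4.99 CPM in CEN WT kidneys, lower than in cebpd WT kidneys (-0.80 ± 0.16, edgeR adjusted p = 0.00459), and 78.6 ± 11.3 CPM in CEN KO kidneys. Of all genes, 25% were called between the wild types and 1.94% in the cebpd comparison without cebpd KO replicate 3. Both differences of ccl25b share the cebpd WT libraries, where ccl25b was highest and the 8 lymphocyte genes had their lowest means. A link of these genes to ccl25b was not tested. Its receptor gene ccr9a averaged 38.3 ± 7.02 CPM in cebpd KO and 27.7 ± 6.27 CPM in cebpd WT kidneys, and 26.9 ± 2.33 CPM in CEN KO and 36.3 ± 9.51 CPM in CEN WT kidneys. It was not called in any comparison.

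Of 7 tested NK and innate lymphocyte genes none was called in either knockout comparison by edgeR, where 0.0845% (cebpd) and 0.00845% (CEN) of all genes were called. At an unadjusted p under 0.05 there were 2 for cebpd and 0 for CEN, where 13.4% and 9.86% of all genes passed. The CEN WT against cebpd WT comparison called 2 of the 7, where 25% of all genes were called. Of these, prf1.5, which encodes a perforin, was higher, with 2.43 ± 0.426 CPM in CEN WT against 0.763 ± 0.0892 CPM in cebpd WT kidneys (log2 fold change 1.66 ± 0.35, edgeR adjusted p = 0.00629). id2a, a transcription factor gene active in many tissues, was lower, with 83.7 ± 18.9 CPM in CEN WT against 185 ± 22 CPM in cebpd WT kidneys (log2 fold change -1.14 ± 0.27, edgeR adjusted p = 0.0111). These genes were chosen after their values were seen.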
